A study of Mus musculus with 6 samples.

Results

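The aquaporins are membrane channels that let water cross cells, and the kidney uses several of them to take water back from the filtrate. Of 9 mouse aquaporin genes named by symbol (Aqp1, Aqp2, Aqp3, Aqp4, Aqp5, Aqp6, Aqp7, Aqp8 and Aqp11), 7 matched a row of the 13965 rows in the expression table, each a row of its own, and Aqp6 and Aqp8 are not analysed here. Whole kidneys were taken at embryonic day 16, and their RNA gave 6 sequencing libraries. The 3 mutant libraries came from Six2-TGC, miR-17~92 flx/flx embryos, in which a Cre transgene expressed from Six2 regulatory sequence in nephron progenitors deletes the miR-17~92 cluster of microRNA genes, floxed on both chromosomes, in those cells. The 3 control libraries came from embryos labelled WT, miR-17~92 flx/+, with 1 floxed copy and no transgene in the label, so the transgene and the deletion cannot be told apart. Each of 3 litters gave 1 mutant and 1 control library. The labels do not give the number or sex of the embryos behind a library, so p-values measure the spread between these libraries only. Some of the genes are neighbours (GENCODE M21, GRCm38): Aqp2 (chr15:99579055-99584547) lies beside Aqp5 (chr15:99590782-99594829) on the plus strand, and Aqp7 (chr4:41033074-41048139) lies near Aqp3 (chr4:41092722-41098183) on the minus strand.

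The groups are called mutant and control as labelled. The row of Mir17hg, the host transcript of the cluster joined with its microRNA genes, had 53.6, 39.8 and 44.6 CPM in the mutant libraries of litters 1, 2 and 3, against 34.1, 36.4 and 23.0 CPM in the controls. Each mutant library lay above every control, and the log2 difference of 0.57 had a limma adjusted p of 0.222, and of 0.0292 paired by litter. This runs opposite to a loss of the cluster. The table does not show which reads of the row come from the deleted bases, and mature microRNAs were not measured, so the row does not check the deletion. Six2 had 38.6 ± 6.68 CPM in mutant and 50.6 ± 7.95 CPM in control kidneys, with overlapping groups. Its limma adjusted p was 0.354, and 0.00626 paired by litter.

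Water channels of the family sit in different cells of the kidney. Aqp1 is the channel of the proximal tubule and the thin descending limb, and it is also made by blood vessel endothelium and red blood cells. Aqp2 is the vasopressin-regulated channel of the apical membrane of collecting duct principal cells, and Aqp3 and Aqp4 let the water leave the same cells at the basolateral side. The proximal tubule descends from the Six2-positive progenitors, whereas the collecting duct grows from the ureteric bud. MicroRNAs bind messages through their seed, bases 2 to 8. The cluster encodes microRNAs of the 4 seed families below, and related clusters elsewhere in the genome also encode microRNAs with some of these seeds.

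The mature microRNAs of the cluster that define these families are shown because their seeds set the sites searched in the aquaporin messages, with the seed in capitals (RefSeq, GRCm38.p6, chromosome 14, plus strand, 5′ to 3′).
mmu-miR-17-5p: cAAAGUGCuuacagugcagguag
mmu-miR-20a-5p: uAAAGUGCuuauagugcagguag
mmu-miR-18a-5p: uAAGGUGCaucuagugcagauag
mmu-miR-19a-3p: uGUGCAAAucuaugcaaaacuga
mmu-miR-19b-3p: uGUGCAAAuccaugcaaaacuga
mmu-miR-92a-3p: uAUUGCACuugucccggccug
miR-17 and miR-20a share 1 seed, and miR-19a and miR-19b share another.

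Aqp1 was the only 1 of the 7 aquaporins whose 3′ untranslated region held a 7-base match to any of these seeds, and it held 2, close together. The longest annotated 3′ untranslated region of each gene was searched on the message strand for GCACTTT (miR-17 and miR-20a), GCACCTT (miR-18a), TTTGCAC (miR-19) and GTGCAAT (miR-92a). The Aqp1 matches lie at bases 404 to 410 and 421 to 427 of a region of 1758 bases (GENCODE M21, GRCm38, chromosome 6, plus strand). They are printed with their neighbouring bases and with the match in capitals.
Aqp1, match to miR-18a: tccttggggtagGCACCTTatctccaaagg
Aqp1, match to miR-17 and miR-20a: ttatctccaaagGCACTTTgagggagagga
Such matches are common. Of 12678 tested genes with a 3′ untranslated region, 35.8% held at least 1 match of the 4 families, and of the 2137 whose region was within 20% of the Aqp1 length, 40.4% did. The regions of Aqp2 (505 bases), Aqp5 (568 bases), Aqp3 (812 bases), Aqp7 (1172 bases), Aqp11 (2619 bases) and Aqp4 (3955 bases) held 0. Among genes with a region near the length of that of Aqp4, 66.8% held at least 1. A match is a description of the letters and not a shown site.

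By level per length, 3 channels made up most of the family at this stage. Levels are given as CPM (reads scaled to the library total) divided by the length in kilobases of all annotated exons of the gene. Aqp1 stood at 21.3 ± 1.34 CPM per kb in mutant and 16.7 ± 1.16 in control kidneys (SD, n = 3 each). Aqp2 stood at 13.3 ± 1.96 and 15.2 ± 1.06 CPM per kb in mutant and control kidneys. Aqp3 stood at 12.8 ± 0.423 and 14.4 ± 0.948 CPM per kb in mutant and control kidneys. Aqp1 ranked first in each of the 6 libraries. Aqp2 ranked above Aqp3 in every control library and in the mutant library of litter 1, and below it in the mutant libraries of litters 2 and 3, so the order of these neighbours did not hold across libraries. Aqp4 came next in each library, at 3.15 ± 1.25 CPM per kb in mutant and 1.97 ± 0.215 in control kidneys. Aqp11 followed Aqp4 in each library, at 0.715 ± 0.05 in mutant and 0.716 ± 0.0923 CPM per kb in control kidneys. Aqp5 had 0.536 ± 0.0762 in mutant and 0.387 ± 0.123 CPM per kb in control kidneys, and Aqp7 0.272 ± 0.0185 and 0.498 ± 0.0785. Aqp5 stood above Aqp7 in 3 of 3 mutant libraries and in the control library of litter 3, and below it in the other controls.

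**Figure D1:**
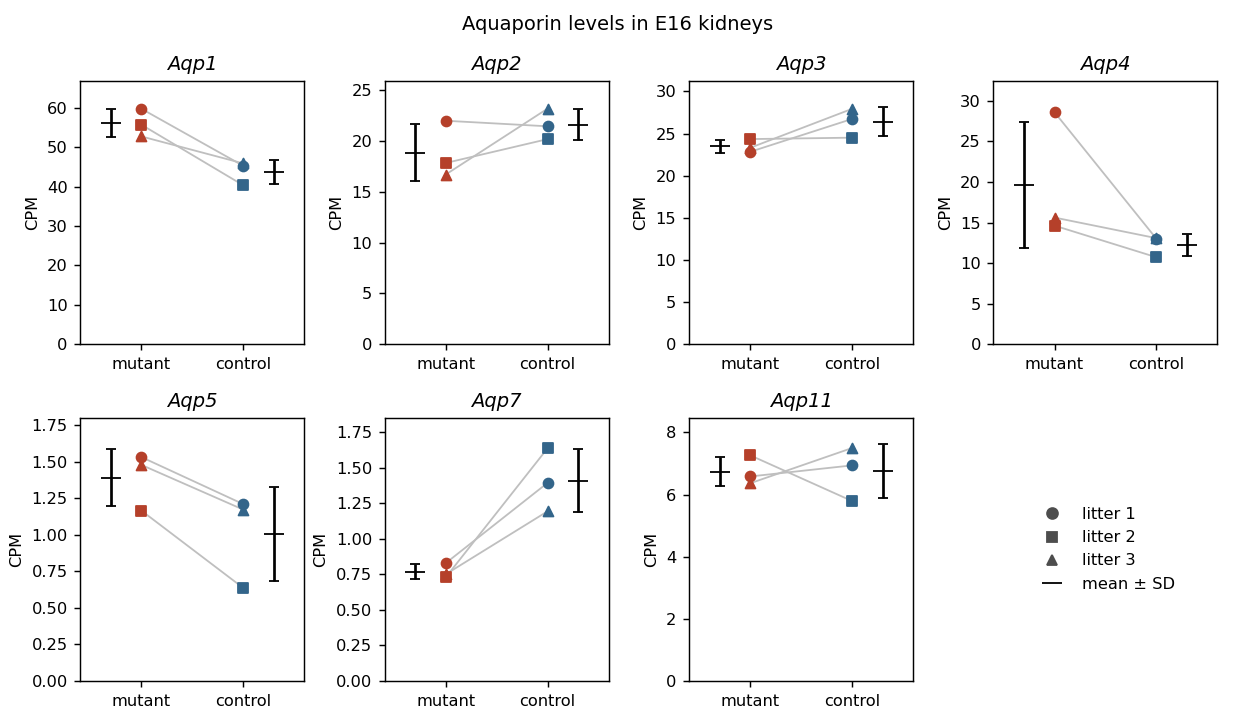
CPM of each aquaporin in mutant (left, red) and control (right, blue) libraries, 1 panel a gene with its own scale from 0; grey lines join the libraries of a litter, and bars give mean ± SD (n = 3). Mutant points lie above every control point for Aqp1 and Aqp4 and below every control point for Aqp7 and, by a narrow gap, Aqp3.

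Compared within litters, mutant kidneys held more Aqp1 and Aqp4 message than control kidneys, and Aqp2, Aqp3, Aqp5, Aqp7 and Aqp11 did not pass the test. The log2 difference was 0.59 for Aqp4, 0.35 for Aqp1 and -0.58 for Aqp7. Without the litter in the model, limma called 0 of the 7 members at an adjusted p below 0.05, against 0.559% of the 13766 rows tested (0.363% higher and 0.196% lower). Aqp1 and Aqp4 had an unadjusted limma p below 0.05, as did 1551 of the 13766 rows. Aqp7 did too, but its p carries no weight, for the reason given below. Paired by litter, limma called 2 members, Aqp1 and Aqp4, both higher, against 11.4% of all rows, 7.93% called higher and 3.51% called lower. With each library's trend on transcript length and GC content removed as well, 1 member was called, Aqp1, against 6.2% of rows (4.18% higher and 2.03% lower). Aqp7 entered the test only through its control libraries, as described with its values, and is left out of the next counts. Of the other 6 members, 3 had values that did not overlap between the groups, against 17.3% of rows. Aqp1 and Aqp4 were above every control (10.2% of rows), and Aqp3 was below every control (7.12% of rows). The difference had the same direction in 3 of 3 litters for 4 of these 6, against 50.5% of rows. The median log2 difference of the 6 was 0.18, or 0.00 with Aqp7, and that of all rows tested was 0.01. In RNA from a whole organ, fewer cells of a type and less RNA in each cell cannot be told apart.

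**Figure D2:**
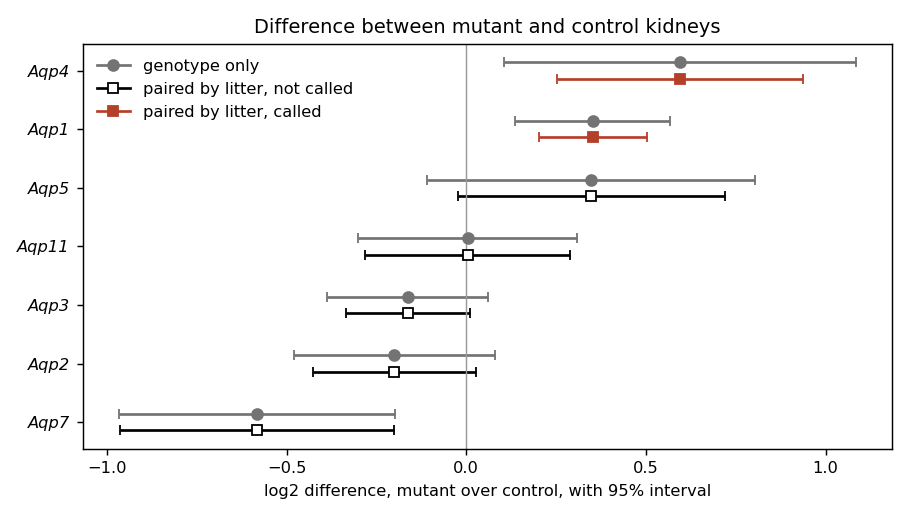
Log2 difference of each aquaporin, mutant over control, on log2(CPM + 0.5), with 95% intervals from limma for genotype only (grey circles) and paired by litter (squares, red where called). Aqp4 and Aqp1 are called when paired, with differences of 0.59 and 0.35, and Aqp7 lies at -0.58.

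Aqp1, the channel of the proximal tubule and thin limb, was higher in each mutant kidney than in any control kidney. It had 59.7, 55.7 and 52.7 CPM in the mutant libraries of litters 1, 2 and 3, against 45.3, 40.3 and 45.9 CPM in the controls of the same litters. The lowest mutant library, that of litter 3, lay above the highest control. The mean was 56.1 ± 3.52 CPM in mutant and 43.8 ± 3.04 CPM in control kidneys, a ratio of means of 1.28, and the ratios within litters were 1.32, 1.38 and 1.15. The log2 difference was 0.35 (SE 0.10, 95% interval 0.14 to 0.57), with a limma adjusted p of 0.178 on genotype alone and of 0.0149 paired by litter. Removing each library's trend on transcript length and GC content left a difference of 0.39 with a paired adjusted p of 0.0104. Without litter 1 the paired adjusted p was 0.0904.

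Cells other than the proximal tubule also make Aqp1. Of the marker lists for them, the endothelial one had called members (5 of 9, all higher, paired by litter) and the erythroid one had 0 of 9. Over all rows the paired fit called 11.4%, with 7.93% higher, so 0 of 9 is near that share. The proximal tubule list summed to 1447, 1352 and 1199 CPM in the mutant libraries of litters 1, 2 and 3, and to 1069, 1002 and 1167 CPM in the controls. Aqp1 equalled 4.13%, 4.12% and 4.40% of that sum in mutant libraries, and 4.23%, 4.02% and 3.93% in controls. Its level relative to the summed list thus overlapped between the groups. The sum weighs the megalin gene Lrp2 most, with 541, 488 and 408 CPM in mutant libraries and 357, 298 and 340 CPM in controls. The share without Lrp2 was not taken, and the length and GC trend was not removed from the shares given here. Of the summed loop and distal tubule list, Aqp1 equalled 5.12%, 5.42% and 4.96% in mutant libraries. The controls had 4.34%, 4.50% and 4.57%, without overlap. The endothelial list summed to between 1143 and 1157 CPM in mutant and between 1014 and 1040 CPM in control libraries. Aqp1 equalled 5.16%, 4.82% and 4.61% of that sum in the mutant libraries of litters 1, 2 and 3, against 4.35%, 3.94% and 4.52% in the controls, and these shares did not overlap. The erythroid list, led by the globin genes Hbb-bs and Hba-a1, summed to between 935 and 1118 CPM in mutant and between 1028 and 1219 CPM in control libraries. Aqp1 equalled 5.34%, 5.96% and 4.86% of it in mutant libraries and 4.23%, 3.92% and 3.76% in controls, again without overlap. The part of each cell type in the Aqp1 difference was not tested.

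Promoter windows of Aqp1 and Aqp2 are shown because the level of these genes relative to each other parted the groups, as described after the other members. The windows run from 250 bases before to 50 bases after the annotated start (RefSeq, GRCm38.p6). Both strands were searched for 4 short motifs, and matches are in capitals. TGACGT is part of the cAMP response element. The letters AGATAA are bound by the zinc finger factors of early blood and kidney duct. The half-site of Hnf1 factors reads GTTAAT. The core of the element bound by Nfat5, the tonicity factor, reads TGGAAA.
Aqp1 chr6:55336049-55336348, plus strand: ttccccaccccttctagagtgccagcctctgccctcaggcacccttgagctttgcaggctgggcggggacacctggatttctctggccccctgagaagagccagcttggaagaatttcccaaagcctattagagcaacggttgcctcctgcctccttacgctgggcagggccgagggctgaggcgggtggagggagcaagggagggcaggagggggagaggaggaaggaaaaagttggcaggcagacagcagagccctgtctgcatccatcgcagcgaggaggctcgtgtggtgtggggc
Aqp2 chr15:99578806-99579105, plus strand: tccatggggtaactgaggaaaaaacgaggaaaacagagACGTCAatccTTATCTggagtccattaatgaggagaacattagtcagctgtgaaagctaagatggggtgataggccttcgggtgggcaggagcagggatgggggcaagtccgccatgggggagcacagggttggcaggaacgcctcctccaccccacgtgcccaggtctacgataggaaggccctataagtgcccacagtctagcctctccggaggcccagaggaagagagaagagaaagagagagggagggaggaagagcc
The Aqp2 window held TGACGT and AGATAA, both read on the minus strand and without overlap, and the Aqp1 window held none of the 4 motifs. Of 32851 windows of this length, 7.51% held TGACGT, 11.2% AGATAA, 7.10% GTTAAT and 21.4% TGGAAA.

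Aqp7 and Aqp11 are the remaining measured members known from the proximal tubule. Aqp7 lets glycerol as well as water pass and lies in the brush border of the straight part of the tubule. It was at the low end of the table, with 0.828, 0.728 and 0.75 CPM in the mutant libraries of litters 1, 2 and 3, against 1.39, 1.64 and 1.19 CPM in the controls. These are 40, 40 and 35 reads in mutant libraries and 61, 72 and 59 reads in controls, and every mutant library lay below every control. Summed over the group and divided by its library totals, the ratio of reads was 0.549, with a 95% exact binomial interval of 0.432 to 0.695 that covers counting error only. The log2 difference of -0.58 (SE 0.17) had a limma adjusted p of 0.215, and of 0.0592 paired by litter. No mutant library reached 1 CPM for Aqp7, so the row entered the test through its 3 control libraries alone and could enter only with a difference of that direction. Aqp7 is also made in fat, where it exports glycerol. The adipocyte genes Adipoq, Plin1, Lep and Cidec were not among the rows, and the 3 listed, led by Fabp4 and Lipe, summed to 165 to 193 CPM in mutant and 152 to 194 CPM in control libraries.

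Aqp11 is an intracellular channel whose loss in mice causes cystic kidneys. It had 6.58, 7.27 and 6.36 CPM in the mutant libraries of litters 1, 2 and 3, against 6.94, 5.79 and 7.50 CPM in the controls. The groups overlapped, and the mutant library was higher in litter 2 alone. The log2 difference was 0.00 with a 95% interval of -0.30 to 0.31 (limma adjusted p = 0.995, and 0.988 paired), and its sign turned under both other scalings, to -0.0096 with TMM and -0.011 with median-ratio scaling.

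Aqp2, the vasopressin-regulated channel, did not differ beyond the spread between litters. It had 22.0, 17.8 and 16.7 CPM in the mutant libraries of litters 1, 2 and 3, against 21.5, 20.2 and 23.2 CPM in the controls. The mutant library was the higher 1 in litter 1 and the lower 1 in litters 2 and 3, and the groups overlapped. The log2 difference of -0.20 (SE 0.13, 95% interval -0.48 to 0.08) had a limma adjusted p of 0.597, and of 0.223 paired by litter. With the length and GC trend removed the difference was -0.08 (limma paired adjusted p = 0.651).

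Aqp3, which lets glycerol as well as water pass, had 22.8, 24.3 and 23.3 CPM in the mutant libraries of litters 1, 2 and 3, against 26.7, 24.5 and 27.9 CPM in the controls. The mutant library was lower in 3 of 3 litters, by a ratio of 0.993 in litter 2, and the groups did not overlap, by a narrow gap. The log2 difference of -0.16 (SE 0.10, 95% interval -0.39 to 0.06) had a limma adjusted p of 0.592, and of 0.194 paired by litter. With the length and GC trend removed the difference was -0.10 (limma paired adjusted p = 0.432). Urothelium also makes Aqp3, and its list summed to between 24.1 and 35.0 CPM in mutant and 21.1 and 41.4 CPM in control libraries.

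Aqp4 was higher in mutant kidneys, by most in 1 litter. It had 28.6, 14.6 and 15.6 CPM in the mutant libraries of litters 1, 2 and 3, against 13.0, 10.7 and 13.1 CPM in the controls. The mutant library of litter 1 stood far above the other two, and all 3 lay above every control. The mean was 19.6 ± 7.80 CPM in mutant and 12.3 ± 1.34 CPM in control kidneys, and the ratios within litters were 2.20, 1.36 and 1.19. The log2 difference of 0.59 (SE 0.22, 95% interval 0.11 to 1.08) had a limma adjusted p of 0.329, and of 0.0398 paired by litter. It was 0.30 without the mutant library of litter 1 (adjusted p = 0.420), and 0.34 without litter 1 when paired (0.163). Long transcripts were higher in mutant libraries over all genes, with a rank correlation (Spearman's rho) of length with the log2 difference of 0.413 across 13517 rows, and with the length and GC trend removed Aqp4 had a difference of 0.56 (SE 0.15 paired, 0.15 before) and a paired adjusted p of 0.0638. In the mouse the proximal tubule expresses Aqp4 as well as the collecting duct. Aqp4 equalled 1.98%, 1.08% and 1.3% of the summed proximal tubule list in the mutant libraries of litters 1, 2 and 3, against 1.22%, 1.07% and 1.12% in the controls, so it was highest in the same mutant library on this measure too. Aqp4 is the main channel of astrocytes and is made in skeletal muscle. Of 8 muscle and astrocyte genes, 2 were among the rows (Aldh1l1 and Tnnt3, not called), and the defining markers Gfap, Acta1 and Ckm were not.

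Aqp5, a channel of secretory glands and lung that intercalated cells of the collecting duct also make, was near the lower limit of the table. It had 1.53, 1.17 and 1.48 CPM in the mutant libraries of litters 1, 2 and 3, or 74, 64 and 69 reads. The controls had 1.21, 0.636 and 1.17 CPM, or 53, 28 and 58 reads. The mutant library was higher in 3 of 3 litters, and the groups overlapped through litter 2 of the mutants. The log2 difference of 0.35 (SE 0.21, 95% interval -0.11 to 0.80) had a limma adjusted p of 0.577, and of 0.196 paired by litter. None of 6 lung and salivary genes, Sftpc among them, was among the rows.

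Ratios of aquaporins within a library do not depend on how the library was scaled. Each library's trend on transcript length and GC content was not removed from them. The ratio of Aqp1 to Aqp2 separated the groups. Aqp1 reached 2.71, 3.12 and 3.16 times the CPM of Aqp2 in the mutant libraries of litters 1, 2 and 3, against 2.11, 2.00 and 1.98 times in the controls. Aqp4 reached 1.3, 0.819 and 0.935 times the CPM of Aqp2 in mutant libraries and 0.606, 0.531 and 0.564 times in controls. Both ratios were higher in each mutant library than in any control. The ratio of Aqp3 to Aqp2 was 1.04, 1.36 and 1.39 in mutant libraries and 1.25, 1.21 and 1.2 in controls, which overlapped, with a wider spread among mutants. These ratios were chosen with the levels known and carry no test. As a share of the per-length sum of the 7 channels, Aqp1 made up 40.0%, 41.6% and 41.3% in mutant libraries and 34.0%, 33.3% and 33.0% in controls.

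**Figure D3:**
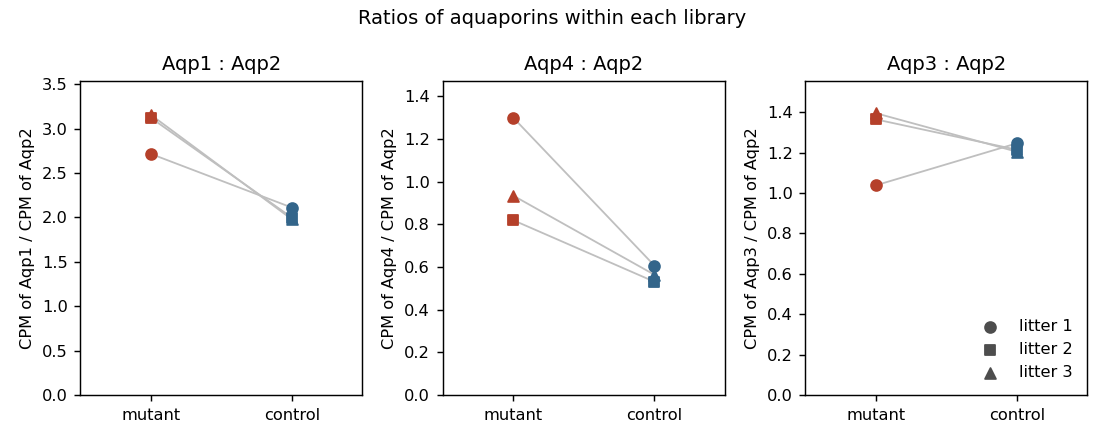
Ratio of the CPM of 2 aquaporins within each library, mutant (left, red) and control (right, blue), with grey lines joining the libraries of a litter. Aqp1 over Aqp2 and Aqp4 over Aqp2 are higher in each mutant library than in any control, and Aqp3 over Aqp2 overlaps.

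Genes that mark the cells of these channels and that act on them were read from lists. Unpaired, limma called 0 members in each list named here, and the counts below are from the fit paired by litter, which called 7.93% of all rows higher and 3.51% lower. With the length and GC trend removed as well, these shares were 4.18% and 2.03%. Of 18 proximal tubule genes 6 rose and 0 fell, with a median log2 difference of 0.19. The difference was above 0 for 13 of the 18, against 53.1% of all rows, and below 0 for the rest. The genes named next are called ones with the smallest paired adjusted p, so they do not stand for the list. Among the 6 that rose was Keg1 (67.8 ± 7.90 CPM in mutant and 44.6 ± 4.29 CPM in control kidneys, paired adjusted p = 0.00219 by limma). The cadherin gene Cdh6 had 36.9 ± 2.19 CPM in mutant and 23.8 ± 3.97 CPM in control kidneys (0.00471). Lrp2, the megalin gene of proximal protein uptake, had 479 ± 67.0 CPM in mutant and 332 ± 30.7 CPM in control kidneys (0.00649). Hnf4a, a transcription factor of the proximal tubule, had 119 ± 3.72 CPM in mutant and 101 ± 8.11 CPM in control kidneys (0.0339). With the length and GC trend removed as well, 3 rose, Keg1 and Cdh6 among them, and Lrp2 (0.0634) and Hnf4a (0.0639) were not called. Of 14 loop and distal tubule genes 2 rose, Wnk1 and Trpm6, and 0 with that trend removed.

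The principal cell list had a median log2 difference of 0.19, opposite in sign to Aqp2 and Aqp3. Of 18 genes 5 rose and 0 fell, and 17 had a difference above 0, against 53.1% of all rows. With the length and GC trend removed, the differences of Aqp2 and Aqp3 were smaller, at -0.08 and -0.10. Fxyd4, a regulator of the sodium pump in the collecting duct, had 10.4 ± 1.5 CPM in mutant and 6.68 ± 1.06 CPM in control kidneys (limma paired adjusted p = 0.00831). Wnt7b, a signal from the ureteric epithelium needed for the medulla, had 20.3 ± 2.65 and 16.1 ± 2.10 CPM in mutant and control kidneys (0.0277), and Krt18 and the transcription factor gene Tfcp2l1 rose too. The list summed to between 1312 and 1376 CPM in mutant and between 1158 and 1241 CPM in control libraries. Aqp3 equalled 1.74%, 1.77% and 1.70% of that sum in the mutant libraries of litters 1, 2 and 3, against 2.31%, 2.02% and 2.25% in the controls. The same share for Aqp2 was 1.68%, 1.3% and 1.22% in mutant libraries and 1.85%, 1.67% and 1.87% in controls. The share of Aqp3 did not overlap between the groups, and that of Aqp2 did. The length and GC trend was not removed from these shares. Of 8 ureteric tip genes, 3 rose (Wnt9b, Ret and Sox9) and Etv4 fell. With the length and GC trend removed, Wnt9b rose and Etv4 fell.

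In the intercalated cell list more genes fell than rose. Of 10 genes 3 fell and 1 rose, with a median log2 difference of -0.31. The summed list overlapped between the groups, at 248 to 307 CPM in mutant and 269 to 295 CPM in control libraries. Atp6v1c2 and Atp6v1b1, subunits of the proton pump, had 4.76 ± 0.153 and 25.3 ± 7.21 CPM in mutant kidneys, against 7.64 ± 0.906 and 35.1 ± 1.55 CPM in control kidneys (limma paired adjusted p = 0.0120 and 0.0321). The anion transporter gene Slc4a9 had 17.0 ± 6.08 CPM in mutant and 26.4 ± 6.73 CPM in control kidneys (0.0136), with overlapping groups. The carbonic anhydrase gene Car2, also expressed outside these cells, rose. With the length and GC trend removed as well, 3 of the list fell and 1 rose.

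Of 13 measured genes that carry the vasopressin signal to Aqp2, 1 rose, a share near that of all rows (7.93%). It was Prkar2a, a regulatory subunit of protein kinase A (66.5 ± 4.82 CPM in mutant and 56.6 ± 5.26 CPM in control kidneys, limma paired adjusted p = 0.0255), and the median log2 difference of the list was 0.01. The receptor gene Avpr2 is not analysed here. Of 14 genes of Aqp2 vesicle traffic 2 rose, against 7.93% of all rows. With the length and GC trend removed 1 rose, against 4.18% of all rows. The 2 genes are named next. They were the motor gene Myo5b (174 ± 11.4 and 137 ± 7.38 CPM in mutant and control kidneys, 0.00332) and the ubiquitin ligase gene Nedd4l. Of 7 genes of the tonicity response 2 rose, the chaperone gene Hspa4l (30.9 ± 3.89 and 19.8 ± 2.65 CPM in mutant and control kidneys, 0.00294) and Nfat5, the factor that switches on osmoprotective genes. With the length and GC trend removed, Prkar2a, Nedd4l and Nfat5 were not called. Of 9 endothelial genes 5 rose, among them Cdh5, Tek, Tie1 and the receptor gene Kdr (168 ± 8.83 and 134 ± 1.02 CPM in mutant and control kidneys, 0.00651), and of 9 erythroid genes 0 were called.

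**Figure D4:**
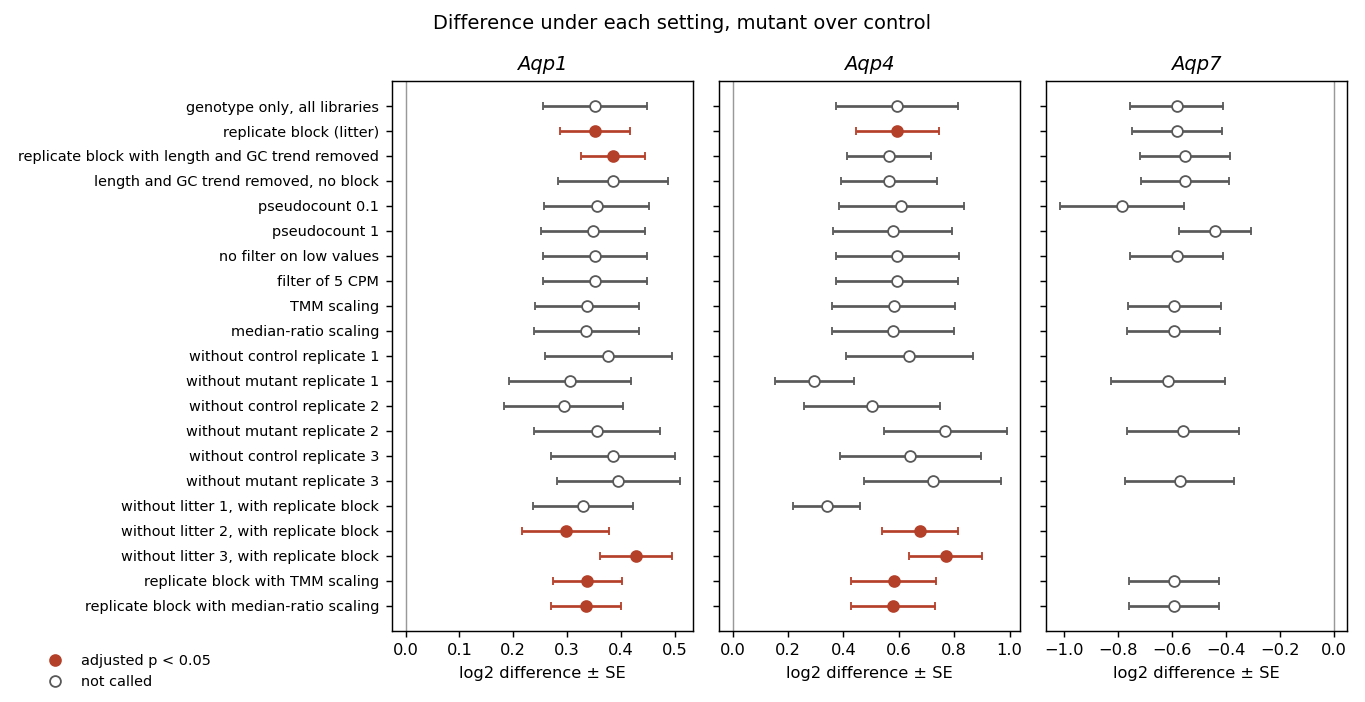
Log2 difference ± SE of Aqp1, Aqp4 and Aqp7, mutant over control, under each setting of the processing, with filled red points where the adjusted p is below 0.05. Aqp1 is called in 6 of 7 settings with the litter as a block and Aqp4 in 5 of 7, and the differences of Aqp1 and Aqp4 keep their sign. Aqp7 has no point where it did not pass the filter, and under the filter of 1 CPM it could appear only with a difference below 0.

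The libraries held 43804667 to 54913325 reads, so 1 CPM stands for 43.8 to 54.9 reads, and the sampling of reads sets the precision for Aqp5 and Aqp7 more than for the other members, which had 255 to 3059 reads a library.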

How the data were processed

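Total RNA of whole embryonic kidneys was made into Illumina TruSeq libraries, per the labels' protocols. The authors deposited CPM values, reads scaled to the library total. Per the submitters' processing notes, TopHat2 2.0.9, Picard, SAMtools and build NCBIM37 were used, and the counting program, annotation and strand setting are not given in the sources used here. Every CPM value was a whole number of reads of the library total within 0.001 reads. Genes whose reads overlap were joined in 1 row (526 rows), which touches no aquaporin. Symbols, exon lengths and 3′ untranslated regions came from GENCODE M21 (GRCm38), and 13695 rows had a symbol.

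The 13766 rows that reached 1 CPM in 3 or more libraries were compared on log2(CPM + 0.5) with limma 3.58.1 in R 4.3.3, with genotype alone, trended variance and Benjamini-Hochberg adjustment over all rows, called below 0.05. SE and intervals come from this fit. The alternative fit had litter as a block (replicate block), since the labels name the litter. Deviations from group means correlated at 0.619, 0.446 and 0.312 within litters and at -0.514 to 0.172 between litters, across genes. An exact permutation test of 3 against 3 libraries cannot go below p = 0.1. The aquaporins, the lists and the tests were chosen with earlier results of these data known. The text names every measured aquaporin and, in each list, at most 4 called members by smallest paired adjusted p, or the 2 most abundant members where none was called. The fit was also run on simulated reads that held no length or GC trend, and its recovery is not reported here.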

Additional observations from a re-analysis of the deposited data

How the results depend on the processing

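Direction was kept by Aqp1, Aqp2, Aqp3 and Aqp4 under all 20 alternatives. Aqp5 kept it under the 19 alternatives in which it was tested. Aqp7 was tested under 13 and was lower in each. Where the filter of 1 CPM applied, Aqp7 could enter only with that direction, so its values are no check of it. In all, 123 of 132 member values kept their direction, with the 13 of Aqp7 counted among them. The other 9 are of Aqp11. Its log2 change near 0 became -0.062 with the length and GC trend removed, with or without the replicate block. It became -0.0096 with TMM and -0.011 with median-ratio scaling, with or without the block. Leaving out 1 library gave Aqp11 -0.09 to 0.08, and leaving out 1 litter with the block -0.15 to 0.12. The cause was not tested. Without the block no aquaporin was called under any alternative, with an adjusted p of 0.107 or more. With the replicate block 2 were called, 1 with the length and GC trend removed as well, 2 with TMM or median-ratio scaling (chosen after seeing the data), and 0 to 2 with 1 litter left out (0 without litter 1). The count of rows called was 77 on genotype alone, 1574 with the replicate block, 854 with the block and the trend removed, 218 with the trend removed alone, and 1488 and 1502 with the block and TMM or median-ratio scaling. With 1 library left out it was 22 (without mutant replicate 3) to 100, namely 27 and 44 without control replicates 2 and 3 and 34 without mutant replicate 2. With 1 litter left out and the block it was 381 to 2348. Aqp5 and Aqp7 fell out at a filter of 5 CPM, and Aqp7 also whenever a control library was left out. The planned edgeR and DESeq2 tests were not run. The CPM values came out as whole reads, but the table lists too few low values for the separate check of recovered reads that a count test needed.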

Other observations

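The genes whose level most resembled that of the 2 aquaporins with the highest mean CPM were read off over the 6 libraries, which share 2 genotypes and 3 litters. Galnt14, Strip2 and Il33 were nearest to Aqp1, with a Pearson correlation on log2(CPM + 0.5) of 0.997, 0.993 and 0.993, and 296 of 13715 rows exceeded 0.9. Proz, Tsen15 and Rexo2 were nearest to Aqp3 (0.987, 0.978 and 0.975), with 62 rows above 0.9. With 6 libraries and this many rows, such values are a description.

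Of 5 liver and pancreas genes among the rows, 1 was called paired by litter, against 11.4% of all rows (3.51% called lower). Afp, the alpha-fetoprotein gene of fetal liver, had 93.1 ± 8.32 CPM in mutant and 125 ± 4.38 CPM in control kidneys (SD, n = 3 each, limma paired adjusted p = 0.00481). The urothelial genes Upk3a and Upk1b, the most abundant of 7, had log2 differences of 0.12 and -0.23 and were not called.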
